A study of Mus musculus with 20 samples.

Results

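The glycolysis and low-oxygen response genes are 37 genes listed by symbol, namely the enzymes that break glucose down to lactate, their glucose transporter and lactate exporter, and genes that cells are known to switch on when oxygen is scarce. Members were counted as measured where their level averaged at least 0.5 FPKM (fragments per kilobase, corrected for depth) over all libraries. Of the 37 listed genes, 35 were measured, out of 12455 genes that met the same limit. The hypoxia marker carbonic anhydrase Car9 (mean 0.02 FPKM) and the HIF family gene Hif3a (mean 0.03 FPKM) lay under it, and Egln3 (mean 0.57 FPKM) was the lowest member inside it. Expression was measured by directional poly-A RNA sequencing in pancreatic beta cells sorted from islets of male mice aged 6 to 8 months on standard chow. The labels describe 4 genotypes with 5 libraries each. WT is wild type, IKO carries a beta cell knockout of Foxo1, HKO one of Hnf4a, and DKO one of both genes. The knockouts combine floxed alleles of Foxo1, of Hnf4a or of both with RIP-Cre, a Cre recombinase driven by an insulin promoter, so deletion depends on that promoter and reaches only cells that have used it. Cells were collected on a tomato reporter at ROSA26 that RIP-Cre switches on, which the labels give for all groups. The labels do not say which mouse each library came from or whether mice were pooled, so p-values measure only how much these libraries differ, part of which may be technical. Both deleted genes encode transcription factors of metabolism, and the comparisons ask how the listed genes differ when either or both are lost.

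Glycolysis turns glucose into pyruvate in the cytosol. Beta cells mostly pass that pyruvate to mitochondria, and they keep the lactate enzyme Ldha and lactate carriers of the Slc16a family low, which couples glucose to insulin release. When oxygen is scarce, prolyl hydroxylases of the Egln family stop marking the HIF transcription factors for destruction, and HIF then binds short core sequences in promoters of glycolytic genes and of genes for matrix, mitochondrial turnover and vessel growth. Egln3, Pdk1 and several glycolytic enzymes are themselves HIF targets.

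The promoters of 6 members are shown because many of the listed genes carry the short core that HIF recognises, and because these 6 include members that varied most between libraries as well as Hif1a, which varied little. Each line gives the 150 bases before a RefSeq gene start, from the RefSeq promoter table of build GRCm38.p6, 5′ to 3′, in a stretch outside the annotated exons of that gene. Capitals mark the low-oxygen core ACGTG or GCGTG on either strand, so CACGT and CACGC mark a core on the opposite strand.
Ldha (chr7:46845654-46845803, plus strand): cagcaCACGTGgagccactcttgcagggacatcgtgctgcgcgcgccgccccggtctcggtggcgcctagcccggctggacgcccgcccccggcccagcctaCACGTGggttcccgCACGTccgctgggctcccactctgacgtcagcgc
Adm (chr7:110627507-110627656, plus strand): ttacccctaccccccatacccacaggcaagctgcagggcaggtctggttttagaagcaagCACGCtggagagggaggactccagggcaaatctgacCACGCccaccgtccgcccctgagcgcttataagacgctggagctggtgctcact
P4ha1 (chr10:59323146-59323295, plus strand): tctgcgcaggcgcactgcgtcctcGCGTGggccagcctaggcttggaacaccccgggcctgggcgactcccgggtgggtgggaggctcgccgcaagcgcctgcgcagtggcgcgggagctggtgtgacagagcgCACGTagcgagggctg
P4ha2 (chr11:54100774-54100923, plus strand): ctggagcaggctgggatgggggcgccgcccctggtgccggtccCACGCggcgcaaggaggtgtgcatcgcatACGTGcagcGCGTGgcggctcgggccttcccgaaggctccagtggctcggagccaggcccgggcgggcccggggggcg
Pgk1 (chrX:106186950-106187099, plus strand): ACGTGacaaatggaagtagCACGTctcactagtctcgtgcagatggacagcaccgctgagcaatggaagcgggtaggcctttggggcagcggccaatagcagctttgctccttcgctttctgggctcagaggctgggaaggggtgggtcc
Hif1a (chr12:73907717-73907866, plus strand): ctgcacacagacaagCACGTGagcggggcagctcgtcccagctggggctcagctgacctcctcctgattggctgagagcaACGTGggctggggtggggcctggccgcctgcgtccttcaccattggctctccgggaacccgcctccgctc
Runs of 6 capitals reading CACGTG hold overlapping cores on both strands and were counted on each. The table held promoters for 33 of the 35 measured members, and none was found in it for Bnip3l and Ndrg1. Within 250 bases before the start, 30 of the 33 (90.9%) held a core, against 62.6% of 9427 tested genes with a promoter in the table and 41.5% of all 27025 genes in it. The members without a core were Gpi1, Tpi1 and Eno2. A gene was counted if any of its promoters held a core. Counted by promoter, 79.2% of 53 member promoters held one, against 56.4% of 12064 promoters of tested genes. The list was drawn up partly from known low-oxygen genes. Base composition was close, with a median of 60.4% G or C in member promoters and 60% in those of all tested genes. The forkhead motif TGTTTAC, searched on both strands, was present in Aldoc and Mxi1 (6.06% of members against 2.66% of tested genes), and the HNF4 motif CAAAGTCCA in 0 members (0.392% of tested genes). A match to any of the 3 motifs is a description of sequence and not of binding. Hif1a and Ldha both hold the core, and the levels of Ldha spanned a far wider range than those of Hif1a.

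Depth was 22.6 to 34.7 M reads per library, and the mean levels of the deleted genes followed the labels. Foxo1 averaged 6.64 ± 1.48 FPKM over the WT libraries, 1.11 ± 0.460 over IKO, 5.97 ± 1.84 over HKO and 1.40 ± 0.263 over DKO (SD, n = 5). The exact two-sided permutation p was 0.00794 for IKO against WT and for DKO against HKO, the smallest that 5 against 5 libraries allow. Hnf4a averaged 5.56 ± 0.860 FPKM over the WT libraries, 5.39 ± 1.02 over IKO, 3.82 ± 0.355 over HKO and 3.99 ± 0.341 over DKO (exact p = 0.00794 for HKO against WT and 0.0317 for DKO against IKO), and a value over the whole gene can include reads from outside a deleted part. Libraries within a genotype were not equally alike. Replicates 1 and 2, and replicates 4 and 5, formed close pairs in every genotype, with replicate 3 apart, and these 3 groups are called library sets below. The median chi-square per gene, relative to that of sampling noise, was 1.44 to 3.08 for the 8 close pairs and 6.05 to 21.5 for the 32 other pairs. Beta cell markers summed to more than those of any other cell type list in every library. Of the 10 marker lists, neither IKO replicate 1 nor 2 lay above every WT library in any (0 lists), and at least 1 of them lay under every WT library in 4 (ductal, stellate and fibroblast, red blood cell and dissociation stress genes). Acinar markers summed to between 32.1 and 226 FPKM per library in WT, 21.8 and 197 in IKO, 346 and 1285 in HKO, and 144 and 1282 in DKO, with Prss1 and Amy2a5 at 0 in every library. In bulk samples such as these, fewer cells of a type and less RNA per cell cannot be told apart.

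The members varied mainly by library, and most of them together. IKO replicates 1 and 2 were the highest 2 of all 20 libraries for 29 of 35 members, a pattern that 2.69% of all tested genes showed. IKO replicates 1, 2, 4 and 5 were the highest 4 libraries for 17 members (0.522% of tested genes). IKO replicate 3 went the other way, lying under every WT library for 23 members (15.1% of tested genes). HKO split in a like manner, with replicates 1 and 2 under every WT library for 21 members (9.05% of tested genes) and replicates 4 and 5 over every WT library for 15 (12.1%). The 6 members for which IKO replicates 1 and 2 were not the highest pair were Pfkm, Pfkfb4, Eno2, Vegfa, Ddit4 and Hif1a. By genotype mean, IKO was highest for 33 members and DKO lowest for 27. Slc16a3, Egln3 and Adm averaged under 0.5 FPKM over the WT, HKO and DKO libraries, so they were measured only through IKO. They are among the 29 members above and the 33 here, and Slc16a3 and Egln3 are among the 17. For them a high level in IKO is a description. The members were chosen with earlier results of these data known, so these counts are descriptions too. The residual SD on the log2 scale, which is the spread left within genotypes, had a median of 0.29 over the members and 0.16 over all tested genes, and 17 of 35 members exceeded the 90th percentile of all genes.

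**Figure D1:**
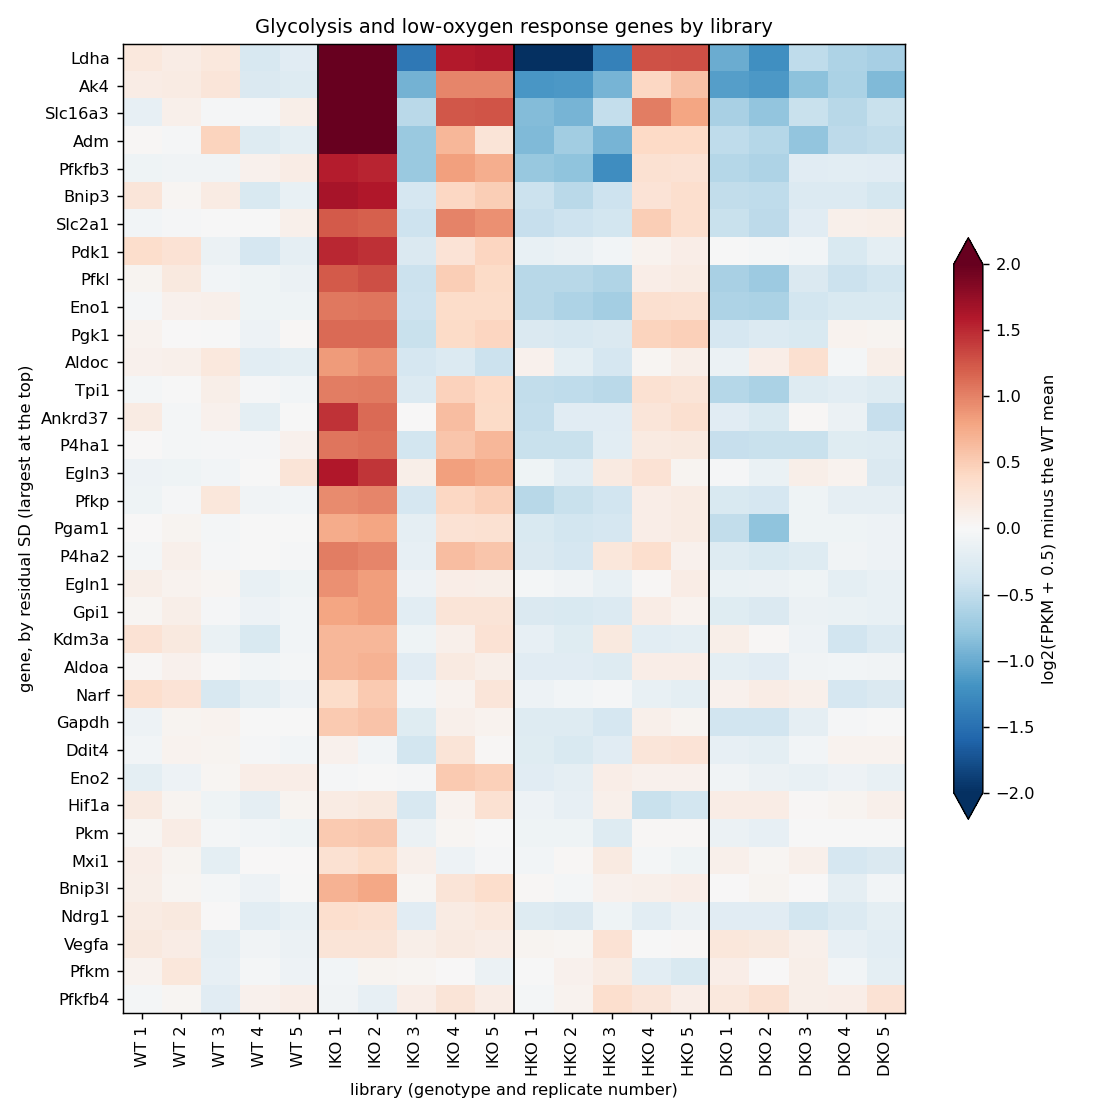
Each row is a measured member and each column a library, grouped by genotype with black lines; colour is log2(FPKM + 0.5) minus the WT mean, red above and blue below, and values past 2 in either direction take the darkest shade. IKO replicates 1 and 2 are the reddest columns and IKO replicate 3 is mostly blue, while rows at the bottom, such as Vegfa, Pfkm and Pfkfb4, are pale throughout.

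The lactate end of the pathway had the widest ranges. Ldha makes lactate from pyruvate and is among the genes that beta cells normally keep low. WT levels of Ldha were 5.29, 5.05, 5.27, 3.49 and 3.76 FPKM in replicates 1 to 5, and IKO levels were 42.6, 41.6, 1.36, 14.6 and 14.9 FPKM. Ldha levels were 0.608, 0.336, 1.46, 11.6 and 11.8 FPKM in HKO, and 2.01, 1.64, 3.03, 2.78 and 2.67 FPKM in DKO. Of the IKO libraries, replicates 1, 2, 4 and 5 lay above every WT library and replicate 3 below all of them, while HKO replicates 1 to 3 lay below WT and replicates 4 and 5 above it. All 5 DKO libraries lay below all 5 WT libraries, but IKO replicate 3 was lower than any DKO library. Ldha therefore spanned 127-fold from its lowest to its highest library, while Ldhb, the other lactate dehydrogenase subunit gene, read 8.95, 9.55, 7.95, 8.63 and 8.75 FPKM in WT and 7.37, 7.96, 8.93, 10.2 and 10.1 FPKM in IKO. Ldha made up 34.1 ± 4.68% of the summed Ldha and Ldhb level in WT and between 13.3 and 85.2% in the 5 IKO libraries. Slc16a3 exports lactate. Slc16a3 read 0.398, 0.570, 0.481, 0.486 and 0.580 FPKM in WT replicates 1 to 5, against 5.73, 5.18, 0.191, 1.87 and 1.89 FPKM in IKO replicates 1 to 5. In HKO Slc16a3 read 0.0492, 0.0265, 0.222, 1.52 and 1.23 FPKM, and in DKO 0.140, 0.0785, 0.238, 0.181 and 0.235 FPKM. The order of libraries was that of Ldha, with IKO replicates 1, 2, 4 and 5 above WT, IKO replicate 3 below it and every DKO library below every WT library. These are low levels, and the DKO values rest on 5 to 21 reads and the lowest HKO value on 2 reads.

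Ak4, a mitochondrial adenylate kinase, and Adm, which encodes the vessel-widening peptide adrenomedullin, followed the same order at low levels. WT levels of Ak4 were 0.953, 0.965, 1.05, 0.570 and 0.594 FPKM in replicates 1 to 5, and IKO levels were 5.75, 5.66, 0.177, 2.07 and 2.08 FPKM. Ak4 levels were 0.0859, 0.0926, 0.190, 1.24 and 1.46 FPKM in HKO, and 0.111, 0.0941, 0.244, 0.347 and 0.209 FPKM in DKO. IKO replicate 3 and HKO replicates 1 to 3 lay with the DKO libraries under all of WT, and HKO replicates 4 and 5 lay above WT. Adm read 0.519, 0.493, 0.876, 0.343 and 0.379 FPKM in WT replicates 1 to 5, against 4.61, 4.43, 0.102, 1.095 and 0.700 FPKM in IKO replicates 1 to 5. In HKO Adm read 0.0459, 0.124, 0.0296, 0.821 and 0.827 FPKM, and in DKO 0.208, 0.176, 0.0847, 0.197 and 0.219 FPKM. IKO replicates 1, 2 and 4 exceeded every WT library, IKO replicate 5 and HKO replicates 4 and 5 lay within the WT range, and all DKO libraries lay below it. Adm counts were as low as 1 read in HKO replicate 3 and reached 180 reads in IKO replicate 2.

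**Figure D2:**
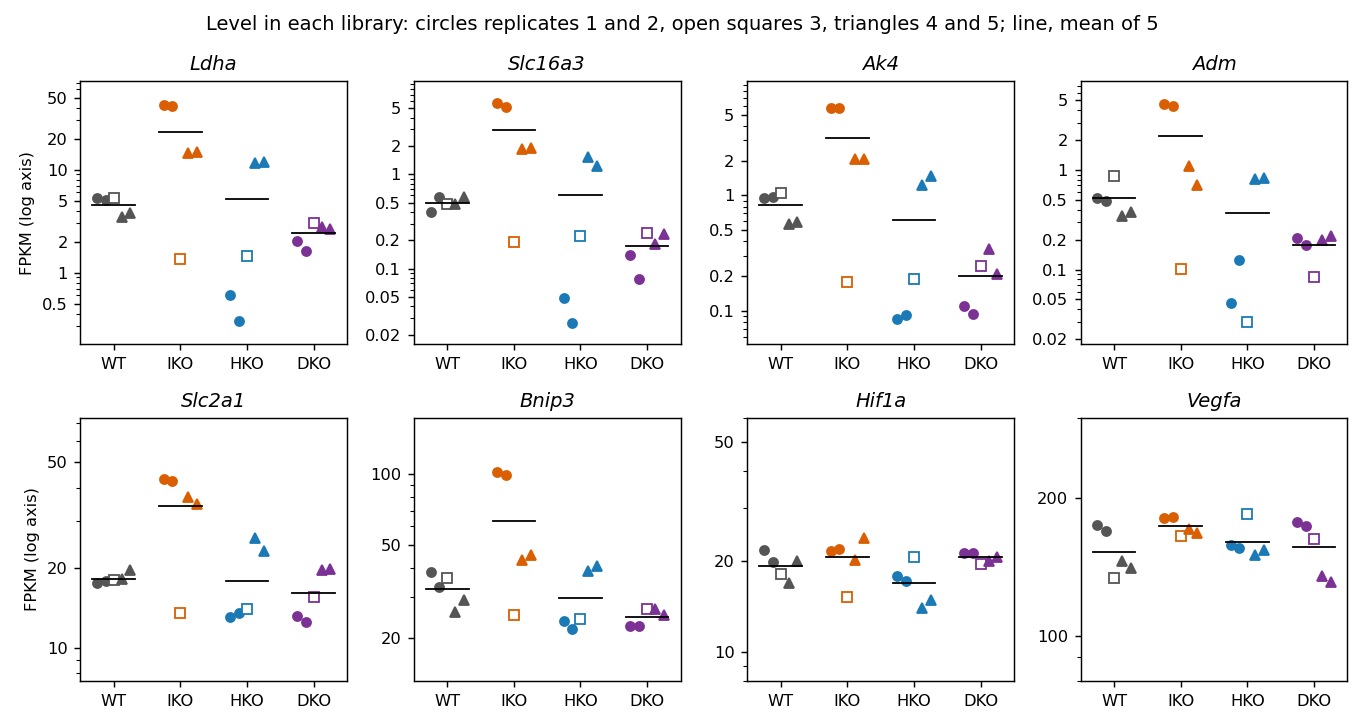
Level of 8 members in FPKM on a log axis, 1 point per library with replicates 1 and 2 as circles, replicate 3 as open squares, replicates 4 and 5 as triangles and the genotype mean as a line. Ldha, Slc16a3, Ak4, Adm, Slc2a1 and Bnip3 spread widely within IKO and HKO, while Hif1a (13.97 to 23.9 FPKM) and Vegfa (132 to 185 FPKM) stay within narrow bands.

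At the entry to glycolysis, Slc2a1 encodes a widespread glucose transporter, next to Slc2a2, the main transporter of mouse beta cells. WT levels of Slc2a1 were 17.5, 17.9, 17.99, 18.1 and 19.6 FPKM in replicates 1 to 5, and IKO levels were 43.1, 42.2, 13.6, 36.8 and 34.8 FPKM. Slc2a1 levels were 13.1, 13.5, 13.95, 25.9 and 23.03 FPKM in HKO, and 13.2, 12.5, 15.5, 19.5 and 19.8 FPKM in DKO. All IKO libraries but replicate 3 read above every WT library and replicate 3 below, HKO replicates 1 to 3 below WT and replicates 4 and 5 above it. Slc2a2 averaged 40.2 ± 21.1 FPKM over the WT libraries, 35.99 ± 18.6 over IKO, 43.9 ± 21.8 over HKO and 43.99 ± 13.7 over DKO (SD, n = 5), and its spread followed the library sets in all genotypes, with replicates 4 and 5 of IKO at 17.02 and 17.3 FPKM. Gpi1, which converts glucose 6-phosphate to fructose 6-phosphate, averaged 91.2 ± 5.34 FPKM over the WT libraries, 123 ± 35.5 over IKO, 83.9 ± 12.9 over HKO and 80.03 ± 4.19 over DKO (SD, n = 5). Of the 3 phosphofructokinase genes, which encode the enzyme of the committed step, Pfkl and Pfkp varied and Pfkm hardly did. Pfkl read 34.2, 37.8, 31.9, 31.2 and 30.4 FPKM in WT replicates 1 to 5, against 78.1, 81.5, 24.5, 46.4 and 43.2 FPKM in IKO replicates 1 to 5. In HKO Pfkl read 22.4, 22.3, 21.7, 36.2 and 37.2 FPKM, and in DKO 20.8, 19.7, 26.9, 24.5 and 25.4 FPKM. All DKO libraries lay below all WT libraries, and IKO replicate 3 was below WT as well. Pfkp averaged 30.3 ± 2.98 FPKM over the WT libraries, 44.9 ± 14.8 over IKO, 26.5 ± 6.41 over HKO and 25.9 ± 1.85 over DKO (SD, n = 5). Pfkm averaged 24.1 ± 2.76 FPKM over the WT libraries, 23.8 ± 1.19 over IKO, 23.3 ± 3.23 over HKO and 24.04 ± 2.21 over DKO (SD, n = 5), so the highest library exceeded the lowest by 1.47-fold, against 4.13-fold for Pfkl and 2.91-fold for Pfkp. The Pfkm share of the 3 genes' summed level was 27.5 ± 2.12% in WT and ranged from 14.51 to 33.8% in IKO.

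Pfkfb3 and Pfkfb4 encode enzymes that set the level of fructose 2,6-bisphosphate, the activator of phosphofructokinase. WT levels of Pfkfb3 were 2.69, 2.73, 2.73, 3.09 and 3.25 FPKM in replicates 1 to 5, and IKO levels were 9.602, 9.24, 1.53, 5.48 and 5.08 FPKM. Pfkfb3 levels were 1.499, 1.43, 0.928, 3.67 and 3.65 FPKM in HKO, and 1.78, 1.72, 2.401, 2.41 and 2.39 FPKM in DKO. Again IKO replicates 1, 2, 4 and 5 lay above WT, IKO replicate 3 below it, HKO replicates 1 to 3 below and 4 and 5 above, and all DKO libraries below all WT libraries. Pfkfb4 averaged 3.33 ± 0.351 FPKM over the WT libraries, 3.51 ± 0.483 over IKO, 3.74 ± 0.427 over HKO and 3.93 ± 0.270 over DKO (SD, n = 5), and was the only member whose mean was highest in DKO.

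**Figure D3:**
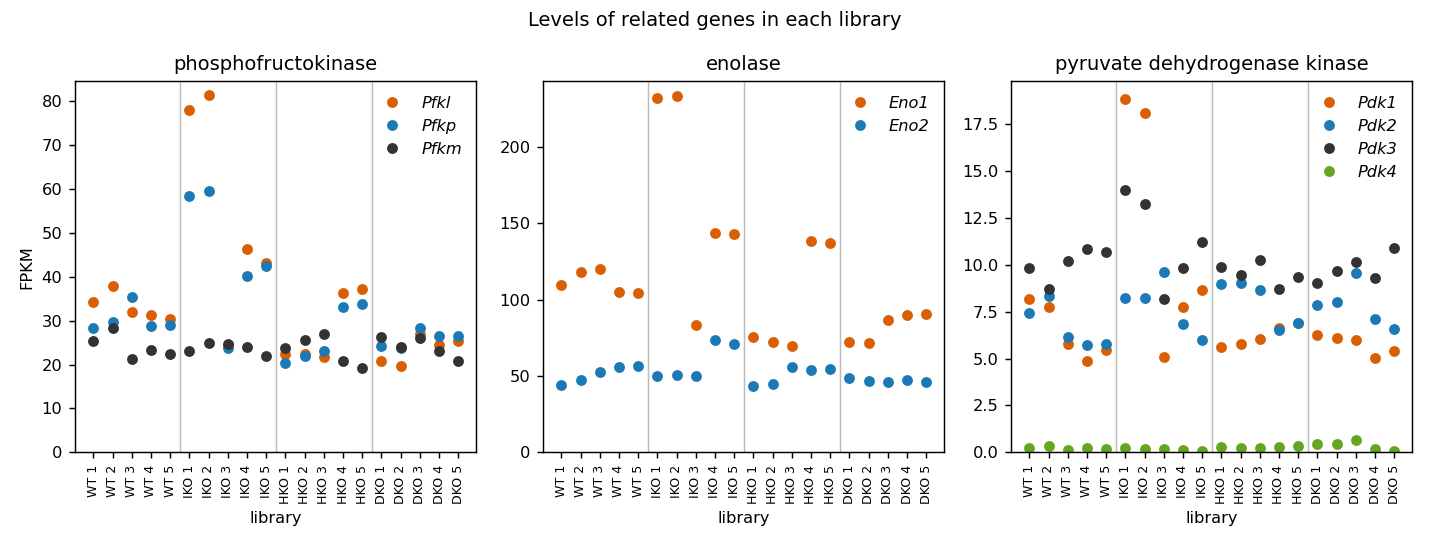
Levels in FPKM on linear axes that start at 0, 1 point per library in genotype order, for related genes of 3 steps: phosphofructokinase (Pfkl, Pfkp, Pfkm), enolase (Eno1, Eno2) and pyruvate dehydrogenase kinase (Pdk1 to Pdk4). Pfkl, Pfkp, Eno1, Pdk1 and Pdk3 peak in IKO replicates 1 and 2, while Pfkm, Eno2 and Pdk2 do not.

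In the middle and lower part of glycolysis, the abundant enzymes varied over smaller ratios in the same libraries. The aldolase gene Aldoa averaged 563 ± 21.6 FPKM over the WT libraries, 706 ± 188 over IKO, 533 ± 76.6 over HKO and 518 ± 29.3 over DKO (SD, n = 5). Aldoc, a brain-type aldolase, averaged 6.52 ± 0.906 FPKM over the WT libraries, 7.94 ± 4.05 over IKO, 6.23 ± 0.884 over HKO and 6.93 ± 0.860 over DKO (SD, n = 5) and was high in IKO replicates 1 and 2 only, at 12.1 and 12.6 FPKM. Tpi1 encodes triose phosphate isomerase, which interconverts the products of aldolase. Tpi1 read 134, 138, 150.2, 136 and 134 FPKM in WT replicates 1 to 5, against 280.3, 285, 114, 191 and 182 FPKM in IKO replicates 1 to 5. In HKO Tpi1 read 98.2, 96.96, 94.9, 172 and 165 FPKM, and in DKO 92.9, 88.8, 115, 119.6 and 116 FPKM. All DKO libraries and IKO replicate 3 lay below WT, and HKO was split by replicate as for Ldha. Gapdh, the glyceraldehyde phosphate dehydrogenase gene often used as a reference, averaged 343 ± 15.6 FPKM over the WT libraries, 404 ± 93.4 over IKO, 314 ± 44.04 over HKO and 301 ± 38.2 over DKO (SD, n = 5), and its highest library exceeded its lowest by 1.95-fold. Pgk1, whose product makes ATP from the next intermediate, averaged 37.6 ± 1.69 FPKM over the WT libraries, 58.8 ± 24.1 over IKO, 39.02 ± 11.8 over HKO and 33.9 ± 4.85 over DKO (SD, n = 5). Pgam1 encodes phosphoglycerate mutase. WT levels of Pgam1 were 20.9, 21.7, 20.2, 20.8 and 20.6 FPKM in replicates 1 to 5, and IKO levels were 35.1, 36.2, 18.3, 25.7 and 25.7 FPKM. Pgam1 levels were 16.7, 16.1, 16.4, 22.8 and 23.5 FPKM in HKO, and 14.7, 11.6, 19.5, 19.7 and 19.3 FPKM in DKO. All DKO libraries again lay under all WT libraries, with DKO replicate 2 the lowest of the 20.

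Enolase, the step before pyruvate kinase, is encoded by Eno1 in most tissues and by Eno2 in neurons and endocrine cells. Eno1 read 109.6, 118, 120.0, 105 and 104 FPKM in WT replicates 1 to 5, against 232, 234, 83.4, 144 and 143 FPKM in IKO replicates 1 to 5. In HKO Eno1 read 75.3, 72.1, 69.5, 139 and 137 FPKM, and in DKO 72.4, 71.8, 86.6, 90.03 and 90.4 FPKM. IKO replicates 1, 2, 4 and 5 and HKO replicates 4 and 5 lay above every WT library, and all other knockout libraries lay below every WT library. Eno1b, a near-identical copy of Eno1, followed it in IKO with 5.21, 5.24, 1.598, 4.097 and 3.45 FPKM against 1.03, 1.41, 0.852, 1.54 and 1.64 FPKM in WT. How reads shared by such copies were counted is not given in the sources used here, so levels of Eno1 and of members with processed copies, such as Gapdh, Pgam1 and Ldha, are uncertain to that extent. Eno2 averaged 51.3 ± 5.25 FPKM over the WT libraries, 59.2 ± 12.1 over IKO, 50.6 ± 5.94 over HKO and 47.01 ± 1.07 over DKO (SD, n = 5), and its highest libraries were IKO replicates 4 and 5 at 73.5 and 71.2 FPKM, with IKO replicates 1 and 2 at 50.1 and 50.9 FPKM. Pkm, the main pyruvate kinase gene here, averaged 322 ± 21.5 FPKM over the WT libraries, 376 ± 82.96 over IKO, 306 ± 23.97 over HKO and 309 ± 15.6 over DKO (SD, n = 5). Pdk1 encodes a kinase that turns off pyruvate dehydrogenase and so keeps pyruvate out of mitochondria. WT levels of Pdk1 were 8.16, 7.75, 5.78, 4.86 and 5.48 FPKM in replicates 1 to 5, and IKO levels were 18.9, 18.1, 5.08, 7.74 and 8.65 FPKM. Pdk1 levels were 5.601, 5.78, 6.03, 6.63 and 6.92 FPKM in HKO, and 6.24, 6.11, 6.004, 5.01 and 5.405 FPKM in DKO. IKO replicates 1 and 2 lay far above the rest and IKO replicate 5 just above WT, and all HKO and DKO libraries lay within the WT range. Among the kinases outside the list, Pdk3 read 14.003 and 13.3 FPKM in IKO replicates 1 and 2, against 8.72 to 10.8 FPKM in WT.

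The oxygen-sensing members differed from one another. Hif1a encodes the oxygen-regulated subunit of HIF, which is controlled mainly at the protein level. Hif1a read 21.8, 19.9, 18.1, 16.9 and 19.98 FPKM in WT replicates 1 to 5, against 21.7, 22.02, 15.3, 20.2 and 23.9 FPKM in IKO replicates 1 to 5. In HKO Hif1a read 17.9, 17.2, 20.6, 13.97 and 14.8 FPKM, and in DKO 21.3, 21.3, 19.6, 20.1 and 20.6 FPKM. The genotypes overlapped, and IKO replicates 1 and 2 lay at the top of the WT range and not apart from it. Egln1, the main prolyl hydroxylase gene, averaged 18.2 ± 1.44 FPKM over the WT libraries, 24.8 ± 8.33 over IKO, 17.97 ± 1.41 over HKO and 16.4 ± 0.455 over DKO (SD, n = 5). Egln3, a prolyl hydroxylase gene that HIF induces, stood at a much lower level. WT levels of Egln3 were 0.294, 0.295, 0.312, 0.341 and 0.517 FPKM in replicates 1 to 5, and IKO levels were 2.07, 1.79, 0.420, 0.996 and 0.930 FPKM. Egln3 levels were 0.296, 0.230, 0.458, 0.536 and 0.377 FPKM in HKO, and 0.336, 0.272, 0.415, 0.393 and 0.194 FPKM in DKO. As elsewhere, IKO replicates 1, 2, 4 and 5 lay above all WT libraries, IKO replicate 3 within the WT range, and all 5 IKO libraries above all 5 DKO libraries. The Egln3 values rest on 12 to 141 reads per library. P4ha1 and P4ha2 encode the catalytic subunits of collagen prolyl hydroxylase. P4ha1 read 26.02, 25.04, 25.5, 25.5 and 27.4 FPKM in WT replicates 1 to 5, against 54.99, 56.2, 20.001, 38.2 and 41.2 FPKM in IKO replicates 1 to 5. In HKO P4ha1 read 18.9, 18.9, 22.2, 29.5 and 29.7 FPKM, and in DKO 18.7, 18.97, 18.96, 21.8 and 21.7 FPKM. WT libraries kept within a band, with 4 IKO libraries above it and IKO replicate 3 and all DKO libraries below it. WT levels of P4ha2 were 15.3, 16.95, 15.4, 15.7 and 15.5 FPKM in replicates 1 to 5, and IKO levels were 32.5, 31.5, 13.98, 24.4 and 23.5 FPKM. P4ha2 levels were 12.8, 12.5, 18.6, 20.03 and 16.7 FPKM in HKO, and 13.1, 12.7, 13.1, 14.9 and 14.6 FPKM in DKO. All DKO libraries lay below WT here too, while HKO was split with replicates 3 and 4 above WT.

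Bnip3 and Bnip3l encode outer mitochondrial membrane proteins that mark mitochondria for removal. Bnip3 read 38.3, 32.97, 36.3, 25.9 and 29.04 FPKM in WT replicates 1 to 5, against 102, 99.1, 25.3, 43.2 and 45.3 FPKM in IKO replicates 1 to 5. In HKO Bnip3 read 23.8, 22.003, 24.1, 38.9 and 40.5 FPKM, and in DKO 22.6, 22.5, 26.7, 26.7 and 25.1 FPKM. IKO replicates 1 and 2 lay far above the rest, and DKO libraries lay at and just below the lower edge of WT. WT levels of Bnip3l were 9.39, 8.81, 8.36, 7.99 and 8.52 FPKM in replicates 1 to 5, and IKO levels were 14.2, 15.1, 8.84, 10.4 and 11.1 FPKM. Bnip3l levels were 8.75, 8.39, 9.16, 9.26 and 9.49 FPKM in HKO, and 8.66, 8.98, 8.69, 7.55 and 8.297 FPKM in DKO. Here IKO replicate 3 lay within WT and the other IKO libraries above it, and HKO and DKO overlapped WT. Ankrd37 encodes an ankyrin repeat protein known as a hypoxia-induced gene. Ankrd37 read 7.37, 6.38, 6.95, 5.65 and 6.49 FPKM in WT replicates 1 to 5, against 18.6, 14.9, 6.603, 10.4 and 8.72 FPKM in IKO replicates 1 to 5. In HKO Ankrd37 read 4.56, 5.51, 5.52, 7.86 and 8.26 FPKM, and in DKO 5.49, 5.19, 6.63, 6.02 and 4.59 FPKM. IKO replicates 1, 2, 4 and 5 exceeded WT, IKO replicate 3 did not, and DKO overlapped WT. Ndrg1 is a stress-induced gene linked to cell differentiation. WT levels of Ndrg1 were 94.2, 96.4, 84.7, 72.3 and 75.8 FPKM in replicates 1 to 5, and IKO levels were 107, 104, 72.1, 94.5 and 97.97 FPKM. Ndrg1 levels were 70.1, 68.6, 79.02, 72.8 and 77.2 FPKM in HKO, and 72.03, 71.9, 65.1, 69.3 and 73.5 FPKM in DKO. Its range was narrow, with IKO replicates 1, 2 and 5 above WT and IKO replicate 3 just below it.

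The remaining members spanned at most 2.15-fold from lowest to highest library. Vegfa, the vascular endothelial growth factor through which beta cells attract blood vessels, was abundant and averaged 153 ± 18.1 FPKM over the WT libraries, 174 ± 7.51 over IKO, 161 ± 13.97 over HKO and 157 ± 21.7 over DKO (SD, n = 5). Ddit4, an inhibitor of mTOR signalling, averaged 38.2 ± 1.58 FPKM over the WT libraries, 38.2 ± 5.94 over IKO, 37.3 ± 7.605 over HKO and 36.8 ± 3.19 over DKO (SD, n = 5). Mxi1, a repressor that opposes Myc, averaged 3.19 ± 0.303 FPKM over the WT libraries, 3.57 ± 0.579 over IKO, 3.18 ± 0.284 over HKO and 3.02 ± 0.523 over DKO (SD, n = 5). The histone demethylase gene Kdm3a averaged 8.06 ± 1.44 FPKM over the WT libraries, 10.3 ± 2.44 over IKO, 7.32 ± 1.03 over HKO and 7.33 ± 1.11 over DKO (SD, n = 5), with 12.9 and 12.8 FPKM in IKO replicates 1 and 2. Narf, which encodes a prelamin-binding factor, averaged 1.86 ± 0.473 FPKM over the WT libraries, 2.25 ± 0.436 over IKO, 1.67 ± 0.101 over HKO and 1.76 ± 0.354 over DKO (SD, n = 5). Car9 was at 0 reads in 9 libraries and at 1 to 3 reads in the other 11, and Hif3a had 3 to 11 reads, so neither level could be compared at this depth.

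For the loss of Foxo1 alone, IKO was compared with WT. Members leaned upward, but none passed. The log2 fold change was above 0 for 33 of 35 members with a median of 0.42, against a median of 0.014 over all genes tested. At an adjusted p below 0.05 in limma, 0 of 35 members passed, where 0.0241% of all tested genes did. Without adjustment, 23 members had a p below 0.05 (4.3% of all tested genes), and voom on the reads passed 0 members. The largest differences were those of Ldha (log2 fold change 1.59 ± 0.76, adjusted p = 0.99997 in limma), Slc16a3 (1.42 ± 0.46, adjusted p = 0.753), Ak4 (1.097 ± 0.46, adjusted p = 0.99997), Adm (0.96 ± 0.44, adjusted p = 0.99997), Egln3 (0.94 ± 0.20, adjusted p = 0.210) and Slc2a1 (0.78 ± 0.25, adjusted p = 0.753), each ± SE. Pfkm (-0.014 ± 0.090, adjusted p = 0.99997) and Ddit4 (-0.013 ± 0.12, adjusted p = 0.99997) were the members below 0. The result turned on single libraries. Without IKO replicate 3, 6 members passed in limma, all higher (Slc2a1, Slc16a3, P4ha1, P4ha2, Egln3 and Bnip3l), where 0.193% of all tested genes passed as higher. Without replicate 3 of all genotypes 4 did, against 0.169%. Slc16a3, Egln3 and Adm averaged under 0.5 FPKM over the WT, HKO and DKO libraries (0.429, 0.351 and 0.356 FPKM), so they reached the level limit only through IKO. Without IKO replicates 1 and 2 the median was 0.14 and 0 members passed.

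For the loss of Hnf4a alone, HKO was compared with WT, and no member passed in limma (0.787% of all tested genes did). The log2 fold change was below 0 for 29 of 35 members, the median was -0.092 against 0.00038 over all genes, and 0 members had an unadjusted p below 0.05 (7.07% of all tested genes). By voom on the reads 0 members passed. The largest differences were those of Ldha (-0.71 ± 0.76, adjusted p = 0.99991 in limma), Ak4 (-0.45 ± 0.46, adjusted p = 0.99991), Pfkfb3 (-0.45 ± 0.34, adjusted p = 0.99991), Adm (-0.34 ± 0.44, adjusted p = 0.99991), Pfkl (-0.28 ± 0.24, adjusted p = 0.99991) and Eno1 (-0.25 ± 0.24, adjusted p = 0.99991). Intervals were wide, and that of Ldha ran from -2.298 to 0.88 on the log2 scale. With replicates 1 and 2 of all genotypes left out, the median became 0.074.

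For the loss of both genes, DKO was compared with WT. Members leaned downward, but no member passed in limma (1.2% of all tested genes did). The log2 fold change was below 0 for 31 of 35 members, with a median of -0.19 against 0.017 over all genes. Without adjustment 2 members had a p below 0.05 (8.01% of all tested genes), Ndrg1 (-0.26 ± 0.094, adjusted p = 0.332) and Pfkfb4 (0.21 ± 0.092, adjusted p = 0.505), and voom passed 0. All 5 DKO libraries lay under all 5 WT libraries for 12 of 35 members, a pattern shown by 1.76% of tested genes. These were Gpi1, Pfkl, Pfkfb3, Tpi1, Pgam1, Eno1, Ldha, Slc16a3, Ak4, P4ha1, P4ha2 and Adm. The mean level in DKO was 53.1% of WT for Ldha, 34.7% for Slc16a3, 24.3% for Ak4, 70.9% for Pfkl and 73.8% for Eno1. When limma was run on WT and DKO libraries alone, without the wide spread of IKO and HKO in the estimate, 6 members passed as lower (Slc16a3, Pfkl, P4ha1, Ldha, Eno1 and Ak4), where 0.851% of all tested genes did. That fit and the 12 separated members count the libraries of a close pair as separate. With all genotypes fitted, 150 tested genes passed in DKO against WT, against 17 with close pairs averaged and 42 with close pairs correlated. Immune cell markers summed to 23.5 to 31.9 FPKM in DKO, above all WT libraries at 13.8 to 22.5 FPKM, and their part in the result was not tested.

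The comparison of DKO with HKO asks what Foxo1 loss adds when Hnf4a is already lost, and again no member passed in limma (0.00803% of all tested genes did). The median log2 fold change was -0.092, with 28 of 35 members below 0, and 1 member, Hif1a, had an unadjusted p below 0.05 (3.69% of all tested genes). Hif1a was higher in DKO by 0.29 ± 0.11, adjusted p = 0.990, and voom passed 0 members. The other largest differences were those of Slc16a3 (-0.48 ± 0.46, adjusted p = 0.990), Ak4 (-0.47 ± 0.46, adjusted p = 0.990), Adm (-0.23 ± 0.44, adjusted p = 0.990), Bnip3 (-0.22 ± 0.28, adjusted p = 0.990) and P4ha1 (-0.22 ± 0.20, adjusted p = 0.990). Apart from Hif1a and P4ha1, these had the opposite sign when replicates 4 and 5 of all genotypes were left out.

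The comparison of DKO with IKO asks what Hnf4a loss adds when Foxo1 is already lost, and it was the comparison in which members passed. In limma 11 of 35 members (31.4%) were lower in DKO at an adjusted p below 0.05 and 0 were higher, while 0.755% of all tested genes passed as lower and 1.11% in either direction. The median log2 fold change was -0.69 over the members and 0.0030 over all genes, 32 members were below 0, and 28 had an unadjusted p below 0.05 (10.2% of all tested genes). Slc16a3, Egln3 and Adm were tested only because IKO was high, so their lower level in DKO than in IKO is given as a description. Of the 11, 9 reached the level limit without IKO, and only these 9 of 32 such members are read as calls. Of the glycolytic enzymes, Pfkl (-1.09 ± 0.24, adjusted p = 0.0284), Tpi1 (-0.91 ± 0.21, adjusted p = 0.0361) and Pgam1 (-0.70 ± 0.17, adjusted p = 0.0467) fell in limma. The adenylate kinase Ak4 (-2.01 ± 0.46, adjusted p = 0.0361) fell most of the 9. As descriptions, the lactate exporter Slc16a3 differed by -1.997 ± 0.46 and Egln3 by -0.997 ± 0.20. Mean levels in DKO were 5.87% and 6.38% of those in IKO for Slc16a3 and Ak4. The hydroxylase genes P4ha1 (-0.97 ± 0.20, adjusted p = 0.0163) and P4ha2 (-0.80 ± 0.17, adjusted p = 0.0198) fell. So did Ankrd37 (-0.94 ± 0.21, adjusted p = 0.0253), Bnip3l (-0.45 ± 0.10, adjusted p = 0.0351) and Ndrg1 (-0.42 ± 0.094, adjusted p = 0.0301). Ldha had the largest difference (-2.39 ± 0.76, adjusted p = 0.184) and did not pass, and its residual SD of 1.33 was the largest of the members. The flat members Pfkm (0.012 ± 0.090, adjusted p = 0.977), Hif1a (0.014 ± 0.11, adjusted p = 0.977) and Pfkfb4 (0.15 ± 0.092, adjusted p = 0.629) were the 3 above 0.

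Libraries of the 2 genotypes overlapped for all members but Eno2 and Egln3, whose 5 DKO libraries lay under all 5 IKO libraries, a pattern of 1.25% of tested genes. For Egln3, which was tested only through its level in IKO, this separation is a description. Marker sums of other cells separated the same libraries, with immune markers at 14.6 to 22.9 FPKM in IKO and 23.5 to 31.9 FPKM in DKO, and delta, PP and epsilon cell markers at 890.5 to 1043 and 1132 to 1453 FPKM. Their part in the result was not tested. The count of 11 rested on IKO replicates 1 and 2 and on the close pairs being counted as separate libraries. It was 1 without either IKO replicate 1 or 2 (Egln3, and 0 of the 9), 0 without both, 5 without IKO replicate 4 or 5, 2 without DKO replicate 1 or 2, 6, 4 and 3 without DKO replicates 3, 4 and 5, and 24 without IKO replicate 3. Among members that reached the level limit without IKO, the count was 9 in the main fit and 4 without IKO replicate 4 or 5. It was 1 without DKO replicate 1 or 2, and 5, 3 and 2 without DKO replicates 3, 4 and 5. Without IKO replicate 3 it was 21. Tested genes passing as lower numbered 94 in the main fit, 66 and 59 without IKO replicate 1 or 2, and 135 without both. They numbered 66 without IKO replicate 4 or 5, 58 to 87 without 1 DKO library, and 191 without IKO replicate 3. With close pairs averaged to 3 samples per genotype 0 of the 11 passed in limma (adjusted p 0.912 to 0.99972), where 10 tested genes passed as lower. With close pairs treated as correlated 0 passed (adjusted p 0.169 to 0.594), where 19 tested genes did. When only IKO and DKO libraries were fitted, 0 passed, where 49 tested genes did as lower. Left without IKO replicates 1 and 2, the median over the members was -0.31. The interaction subtracts the change from WT to IKO from the change from HKO to DKO, and asks whether the effect of Foxo1 loss depends on Hnf4a. In limma 0 of 35 members passed (0.00803% of all tested genes did), with 16 at an unadjusted p below 0.05 (4.42% of all tested genes) and 0 by voom, and the median was -0.52. The comparisons share libraries, and IKO enters the IKO and WT, the DKO and IKO and the interaction contrasts.

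**Figure D4:**
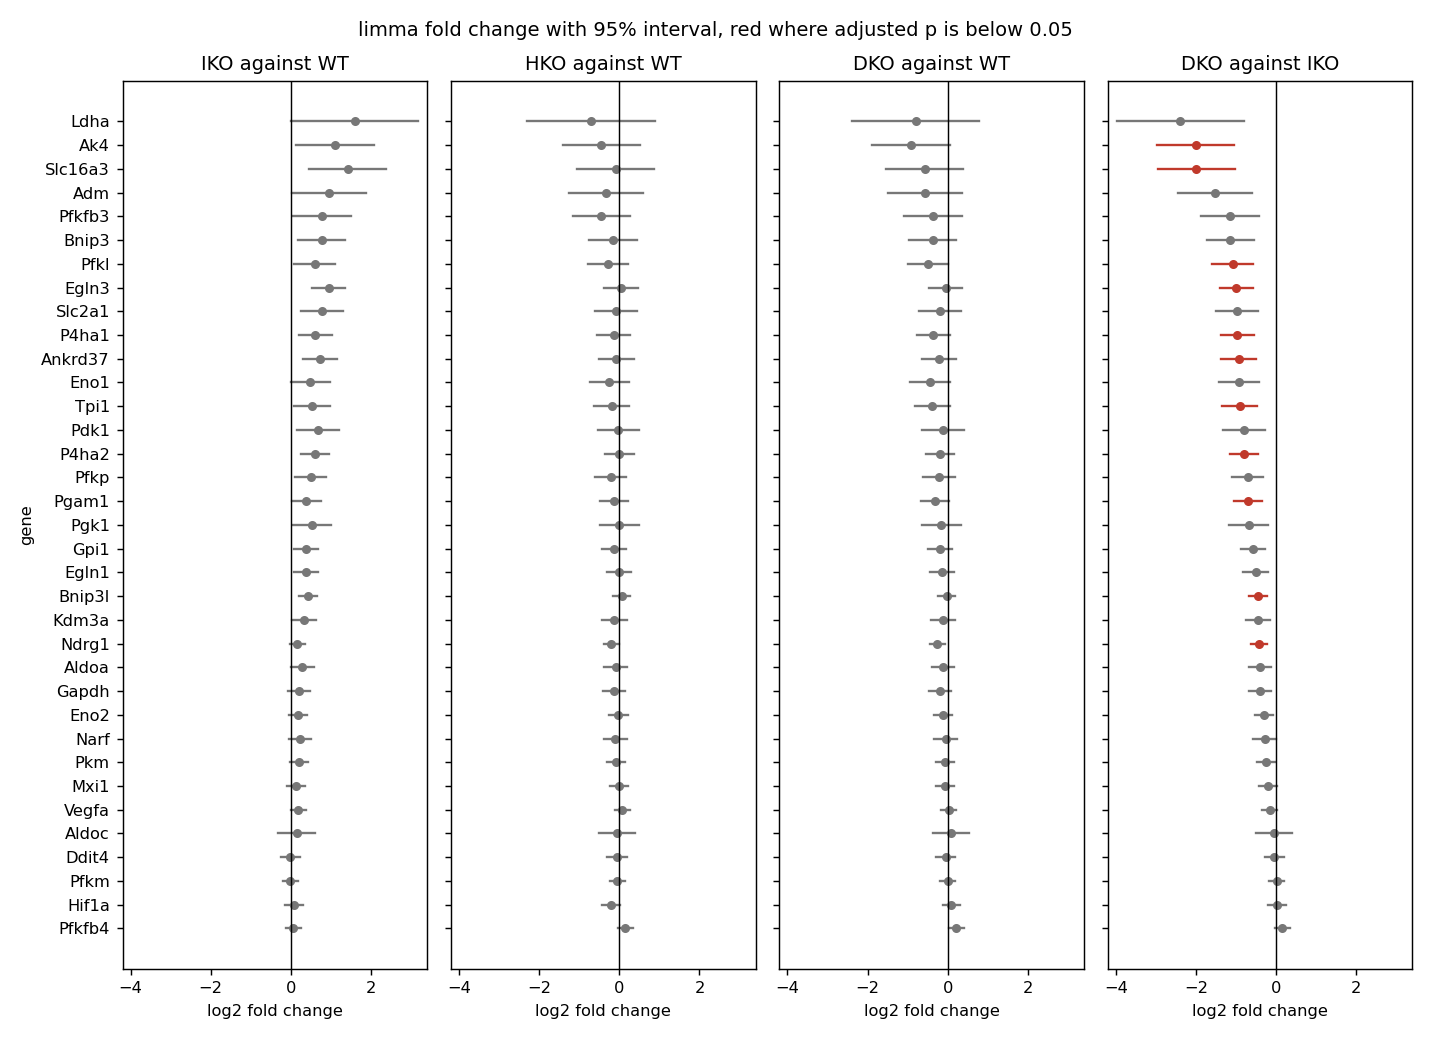
limma log2 fold change on the log2(FPKM + 0.5) scale with its 95% interval for each measured member in 4 comparisons, red where the adjusted p was below 0.05. The 11 red points are all in DKO against IKO and all lie below 0, and intervals are widest for Ldha, Ak4, Slc16a3 and Adm. Of the red points, those of Slc16a3 and Egln3 belong to members tested only through their level in IKO.

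Within library sets the median differences of 4 comparisons and of the interaction differed in sign, and those of DKO against WT did not. For IKO against WT, the median log2 difference over the members was 0.79 in replicates 1 and 2, -0.23 in replicate 3 and 0.38 in replicates 4 and 5. For DKO against IKO it was -1.27, 0.076 and -0.53 in the same order, so replicate 3 showed no lower level in DKO. HKO against WT gave -0.38, -0.26 and 0.18, and DKO against HKO 0.054, 0.13 and -0.26. For DKO against WT the medians were -0.33, -0.13 and -0.084, all below 0, and 19 of 35 members (11.9% of all tested genes) were below 0 in all 3 sets. That count was 10 for DKO against IKO (10.7% of all tested genes), while 5 members were above 0 in all 3 sets for IKO against WT (11.1%). The interaction gave -0.86, 0.34 and -0.60. No label says what separates the library sets. With library set as a term in limma, 21 of 35 members passed in DKO against IKO, 19 of them reaching the level limit without IKO. With close pairs averaged or correlated 0 passed. Calls over all 12455 tested genes moved too, from 138 in the main fit to 434 with the set term. They were 15 with close pairs averaged and 26 with close pairs correlated. Each set holds 1 or 2 libraries per genotype, so these are descriptions.

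Measures of RNA composition and of other cells were compared for the libraries that stood apart. In IKO replicates 1 and 2, mitochondrial transcripts took 2.94 and 2.80% of reads against 1.71 to 2.81% in WT, and insulin genes took 17.01 and 17.7% against 15.98 to 22.3% in WT. The ribosomal precursor Rn45s took 0.332 and 0.281% against 0.347 to 1.47% in WT. Markers of dissociation stress such as Fos, Jun and heat shock genes summed to 501 and 478 FPKM in IKO replicates 1 and 2, 584 FPKM in IKO replicate 3 and 492 to 645 FPKM in WT. Their summed level was highest in HKO replicates 4 and 5, at 793 and 810 FPKM. Acinar markers were also high there, at 1262 and 1285 FPKM, and within the WT range in IKO replicates 1 and 2, at 140.4 and 142 FPKM. DKO replicate 3 had acinar markers at 1282 FPKM as well. HKO replicates 4 and 5 also had the highest sums of delta, PP and epsilon cell markers, at 2668 and 2625 FPKM against at most 2026 FPKM in WT, and mitochondrial transcripts at 3.389 and 3.404% of reads. Their part in the members' levels was not tested.

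Neighbouring pathways were taken from lists beside the 37 members. The members and lists were chosen with earlier results of these data known. Differences between lists may reflect that choice and are descriptions. Of 33 measured further low-oxygen targets, 31 were above 0 in IKO against WT (56.9% of all tested genes), with a median of 0.22. The highest pair was IKO replicates 1 and 2 for 17 of them (2.69% of all tested genes). In DKO against IKO 2 of the 33 passed in limma as lower (0.755% of all tested genes) and 0 as higher. Fam162a, a hypoxia-induced mitochondrial protein gene, averaged 38.4 ± 1.39 FPKM over the WT libraries, 67.9 ± 27.8 over IKO, 38.2 ± 14.2 over HKO and 29.5 ± 3.74 over DKO (SD, n = 5) and fell by 1.08 ± 0.25 on the log2 scale in DKO against IKO (limma adjusted p = 0.0405). Jmjd6, a gene for an oxygen-dependent hydroxylase, averaged 25.95 ± 1.21 FPKM over the WT libraries, 29.7 ± 3.78 over IKO, 25.3 ± 2.76 over HKO and 22.6 ± 1.2997 over DKO (SD, n = 5) and fell by 0.38 ± 0.084 on the log2 scale in DKO against IKO (limma adjusted p = 0.0272). Mgarp, a mitochondrial transport gene, read 5.94, 6.56, 0.295, 1.69 and 1.48 FPKM in IKO and 1.27, 0.877, 1.15, 0.355 and 0.549 FPKM in WT, so its libraries ranked much as those of Ldha. Stc2, a secreted glycoprotein gene, averaged 2.47 ± 0.940 FPKM over the WT libraries, 2.999 ± 1.68 over IKO, 3.13 ± 1.48 over HKO and 2.27 ± 1.05 over DKO (SD, n = 5).

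The other lists showed little of the pattern of high IKO replicates 1 and 2, under the same limit on how lists were chosen. IKO replicates 1 and 2 were the highest pair for 1 of 20 further glycolysis genes, 1 of 20 genes of mitochondrial pyruvate entry, 0 of 8 of the pentose phosphate pathway and 1 of 15 of the oxygen-sensing machinery. Over all tested genes the share was 2.69%, and with so few genes these counts do not set any of the lists apart from it. None of these 4 lists had a member passing in limma in IKO against WT or DKO against IKO, where 0.0241% and 1.11% of all tested genes passed. Their medians in DKO against IKO were 0.021, 0.039, 0.029 and -0.039. In the first list Pklr, the liver-type pyruvate kinase, averaged 5.604 ± 0.770 FPKM over the WT libraries, 5.01 ± 0.923 over IKO, 3.62 ± 0.358 over HKO and 3.61 ± 0.584 over DKO (SD, n = 5) and fell in HKO against WT (-0.56 ± 0.12, adjusted p = 0.0300) and in DKO against WT (-0.57 ± 0.12, adjusted p = 0.0175) in limma, apart from Pkm, which did not pass. Fbp1, which runs the phosphofructokinase step backward, averaged 7.86 ± 6.13 FPKM over the WT libraries, 5.79 ± 1.74 over IKO, 3.46 ± 1.05 over HKO and 6.94 ± 3.47 over DKO (SD, n = 5), its WT spread set by 18.8 FPKM in replicate 3. The pyruvate dehydrogenase regulators Pdp1, Pdp2 and Pdk2 averaged 1.43 ± 0.359, 2.29 ± 0.607 and 6.69 ± 1.145 FPKM in WT and 1.44 ± 0.166, 2.26 ± 0.568 and 7.79 ± 1.39 FPKM in IKO (SD, n = 5). Pgls, Taldo1 and Rpe of the pentose phosphate pathway averaged 60.8 ± 5.13, 114 ± 13.7 and 8.39 ± 0.934 FPKM in WT and 60.1 ± 6.66, 109 ± 9.03 and 8.66 ± 0.559 FPKM in IKO (SD, n = 5). The HIF coactivators Crebbp and Ep300 averaged 5.22 ± 0.897 and 10.4 ± 1.85 FPKM in WT and 4.87 ± 1.34 and 9.901 ± 2.19 FPKM in IKO (SD, n = 5). Arnt2, a partner of HIF proteins, averaged 9.93 ± 1.15 FPKM in WT and 11.3 ± 1.76 FPKM in IKO (SD, n = 5).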

How the data were processed

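The authors deposited one table of FPKM values per gene for 20 libraries. Tools listed in the submitters' processing notes, with no roles, are DESeq2 1.14.1, Subread 1.5.2 with featureCounts, and STAR 2.5.2b, on mm10. Neither annotation nor strand use is given in the sources used here, so genes with overlapping or near-identical copies are uncertain. Of 27179 entries, 847 were named NA (0.0810 to 0.204% of reads per library) and 27 bore dates (0.160 to 0.186%), and both were left out. No column belonged to other samples (0 columns). Dividing each FPKM by the value of 1 read gave whole reads, within 0.02 reads, for 100% of 21006 entries above 0, and these served for depth (22.6 to 34.7 M reads, median 27.8 M) and for voom. A level of 1 read limits low genes such as Slc16a3 and Adm, and this covers counting error only.

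The 12455 genes that averaged 0.5 FPKM or more were fitted on log2(FPKM + 0.5) with limma 3.58.1 (trend) in R 4.3.3, all 20 libraries together, with Benjamini-Hochberg adjustment over all genes and a threshold of 0.05. Fold changes on this scale understate those of low genes. The procedure was run on simulated data in which all libraries were independent. Close pairs here had an estimated correlation of 0.81, so that run cannot show how the procedure behaves with such pairs. Because the values are FPKM and not counts, no count test was a main result. The pathway lists, 36 alternatives and the rule for values by library were set down together: members passing in any comparison, the 6 largest changes in 3 comparisons and the 8 largest residual SDs, and per pathway list the genes passing and the 3 largest residual SDs. Some genes that this rule names are not reported here. The members and lists were chosen with earlier results of these data known. Alternatives covered pseudocounts, filters, scalings, replicate numbers, library sets, close pairs, left-out libraries and voom. Same-numbered libraries of different genotypes deviated together in 24 of 30 pairs at a correlation over 0.1, not in all, so the numbers were not taken to pair samples.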

Additional observations from a re-analysis of the deposited data

Results flagged for a closer look

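In 7 of 140 groups of 5 libraries, 1 library of a member lay far from the other 4, which chance gives in about 1 of 20 groups. Slc2a1 read 13.55 FPKM in IKO replicate 3, under the other IKO libraries. Pfkp read 35.5 FPKM and Tpi1 150.2 FPKM in WT replicate 3, above the other WT libraries. Egln3 read 0.5168 FPKM in WT replicate 5 and P4ha2 16.95 FPKM in WT replicate 2, both above the rest of WT. In HKO replicate 3, Vegfa read 185.4 FPKM and Kdm3a 9.152 FPKM, above the other HKO libraries.

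The mean log2 level of the members differed between genotypes in opposite directions in different library sets. These differences between sets were not tested. IKO minus WT was 0.91 in replicates 1 and 2, -0.28 in replicate 3 and 0.47 in replicates 4 and 5. HKO minus WT was -0.44, -0.26 and 0.25 in the same order. DKO minus HKO was 0.09, 0.10 and -0.37, and DKO minus IKO was -1.27, 0.12 and -0.59.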

How the results depend on the processing

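Against 11 of 35 members lower in DKO than in IKO, counts under the alternatives were 5 with no filter (4 of them among the 9 that reached the level limit without IKO), 21 with a library set term, 23 without replicate 3 of all genotypes, and 0 with only the groups compared, with close pairs averaged, with close pairs correlated, without IKO replicates 1 and 2, without replicates 1 and 2 of all genotypes and without replicates 4 and 5 of all genotypes. Among members that reached the level limit without IKO, the counts were 9 in the main fit and 19 with a library set term. Without replicate 3 of all genotypes the count was 20. Over all tested genes, those passing as lower numbered 94 in the main fit, 82 with no filter and 271 with a library set term. They numbered 180 without replicate 3 of all genotypes, 49 with only the groups compared, and 10 and 19 with close pairs averaged and correlated. The number was 135 without IKO replicates 1 and 2. It was 268 without replicates 1 and 2 of all genotypes and 32 without replicates 4 and 5 of all genotypes. The median of -0.69 moved to -0.31 without IKO replicates 1 and 2 and to -0.33 without replicates 1 and 2 of all genotypes. Leaving out each library in turn gave 1 to 24 members for DKO against IKO, where 85 to 250 tested genes passed in either direction. Among members that reached the level limit without IKO, that range was 0 to 21. For IKO against WT, leaving out each library in turn gave 0 to 6 members, where 1 to 29 tested genes passed. Dropping replicate 3 of all genotypes gave 4 members there, where 26 tested genes passed. With only the groups compared, DKO against WT gave 6 members, where 106 tested genes passed as lower. The cause of these shifts was not tested, and some settings hold fewer libraries. Without replicates 1 and 2 of all genotypes, HKO against WT changed sign for Ldha (0.53), Ak4 (0.13) and Eno1 (0.0019). Without replicates 4 and 5 of all genotypes, DKO against HKO changed sign for Slc16a3 (0.13), Ak4 (0.058), Adm (0.21) and Bnip3 (0.035). With replicate number as a block, 12 members passed in DKO against IKO, 10 of them reaching the level limit without IKO. In that setting 184 tested genes passed as lower, and 0 members passed in IKO against WT. Same-numbered libraries correlated at -0.386 to 0.499 (median 0.303), and 4 of 20 libraries correlated best with their own number. Other pseudocounts, scalings, the filter at 1 FPKM and voom gave 9 to 11 members for DKO against IKO (7 to 9 among those that reached the level limit without IKO). In those settings 87 to 116 of all tested genes passed as lower. Low reads limit Slc16a3, Adm, Ak4 and Egln3.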
